A study of Mus musculus with 4 samples.

Results

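Stat5a and Stat5b encode the paired transcription factors of STAT5 signalling, and Cish, Socs2, Pim1, Pim2 and Bcl6 are genes through which that signalling is commonly read. These 7 genes were taken by symbol from the annotation of the mouse gene array, out of 19938 genes measured with probe sets carrying 1 symbol. All 7 were found, with 8 probe sets in all. RNA had been taken from leukemic whole bone marrow of C57BL/6 mice, 1 array per sample, with 2 arrays labelled Hes1-null and 2 labelled wild type. Every sample, wild type included, carries the leukemia fusion gene MLL-AF9, so no marrow without leukemia serves as a control. The series asks whether Hes1, a transcriptional repressor that Notch signalling induces, accounts for the restraint of this leukemia by Notch. The labels give neither age nor the way the fusion gene was introduced, and nothing in them states that each sample is another animal. The p-values therefore reflect array-to-array spread that could be partly technical.

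STAT5 proteins wait in the cytoplasm until a Janus kinase on a cytokine receptor, or an activated receptor tyrosine kinase such as mutant Flt3, phosphorylates them. They then pair, enter the nucleus and bind DNA at palindromes of the form TTCNNNGAA. Cish and Socs2 are induced as feedback inhibitors of the receptors, Pim1 and Pim2 encode serine and threonine kinases that favour survival and growth, and Bcl6 encodes a repressor whose gene STAT5 is known to shut down in lymphoid cells. The arrays measure messenger RNA and not phosphorylation of STAT5 itself. In whole marrow, fewer cells of a type and less RNA per cell cannot be told apart.

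Levels are log2 of the deposited array intensity, and differences subtract the wild-type mean from the Hes1-null mean, each followed by the SE from limma fitted over all genes (n = 2 arrays per genotype). The Hes1-null arrays lay further from each other than the wild-type arrays did, with 683 genes at least 2-fold apart between replicates in Hes1-null marrow and 109 in wild type. Hes1 itself did not separate the genotypes, at 5.43 and 5.84 on the Hes1-null arrays against 5.59 and 5.79 on the wild-type arrays, a difference of -0.056 ± 0.18. The labels do not say whether its dim probe set lies in the deleted part, so Hes1-null means labelled Hes1-null. The 8 markers of MLL-AF9 leukemic progenitors, such as Meis1 and Kit, were all measured and summed to linear intensities of 12123 and 11205 on the Hes1-null arrays against 10918 and 10532 on the wild-type arrays. Within that list Kit had the widest difference and went against the sum (-1.60 ± 0.60), while the median was 0.11. Deposited intensities come without detection calls. Probe sets differ in response, so a percentile or a gap between 2 genes places signals on the array and does not compare amounts of RNA.

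The promoter windows of Cish, Bcl6 and Pim1 are shown because they differ in the motif that STAT5 binds and because Pim1 and Bcl6 had the largest differences of the group. Each window is 300 bases, 250 before and 50 after an annotated transcript start, from RefSeq on GRCm38.p6, and capitals mark every match to TTCNNNGAA. That motif reads the same on both strands. Windows were matched for 6 of the 7 members, all but Socs2, and several members had more than 1 start. They are written 5′ to 3′ on the strand of the gene.
Cish, chr9:107296409-107296708, + strand: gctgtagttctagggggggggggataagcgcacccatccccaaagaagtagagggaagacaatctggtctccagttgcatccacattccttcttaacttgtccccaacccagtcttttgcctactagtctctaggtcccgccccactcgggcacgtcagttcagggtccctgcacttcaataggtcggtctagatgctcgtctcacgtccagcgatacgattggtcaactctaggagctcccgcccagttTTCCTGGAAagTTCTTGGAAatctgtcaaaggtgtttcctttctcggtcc
Bcl6, downstream start, chr16:23981234-23981533, - strand: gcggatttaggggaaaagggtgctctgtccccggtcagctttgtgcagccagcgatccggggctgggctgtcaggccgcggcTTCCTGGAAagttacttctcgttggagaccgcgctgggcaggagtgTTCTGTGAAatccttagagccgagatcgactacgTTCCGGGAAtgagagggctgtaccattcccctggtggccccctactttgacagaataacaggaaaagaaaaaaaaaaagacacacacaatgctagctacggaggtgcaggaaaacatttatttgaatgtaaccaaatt
Bcl6, upstream start, chr16:23988803-23989102, - strand: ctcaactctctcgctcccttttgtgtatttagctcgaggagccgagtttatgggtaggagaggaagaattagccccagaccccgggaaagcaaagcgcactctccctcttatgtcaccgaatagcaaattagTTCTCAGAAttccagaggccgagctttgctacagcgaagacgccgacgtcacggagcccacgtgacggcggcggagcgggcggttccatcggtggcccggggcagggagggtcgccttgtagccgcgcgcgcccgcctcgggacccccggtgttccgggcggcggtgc
Pim1, upstream start, chr17:29490535-29490834, + strand: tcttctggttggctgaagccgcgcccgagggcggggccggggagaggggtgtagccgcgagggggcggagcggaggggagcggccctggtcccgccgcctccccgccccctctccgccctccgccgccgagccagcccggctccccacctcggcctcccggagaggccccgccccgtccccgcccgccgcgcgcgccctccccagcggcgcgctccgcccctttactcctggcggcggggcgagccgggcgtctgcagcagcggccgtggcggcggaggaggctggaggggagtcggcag

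Cish held 2 matches, TTCCTGGAA beginning at the annotated start base and TTCTTGGAA beginning 11 bases after it. The window at the downstream Bcl6 start held 3 matches, beginning 168, 122 and 88 bases before the start, and that at the upstream start held 1, beginning 118 bases before it. No match was found in the 2 windows of Pim1, the 2 of Stat5a, the 2 of Stat5b or the 1 of Pim2. Across 32851 windows of the same length, 8.30% held at least 1 match and 0.457% held 2 or more. A match is a string of letters, and its absence says nothing on whether STAT5 acts on a gene from elsewhere. The map of matches around the starts shows their positions.

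**Figure D1:**
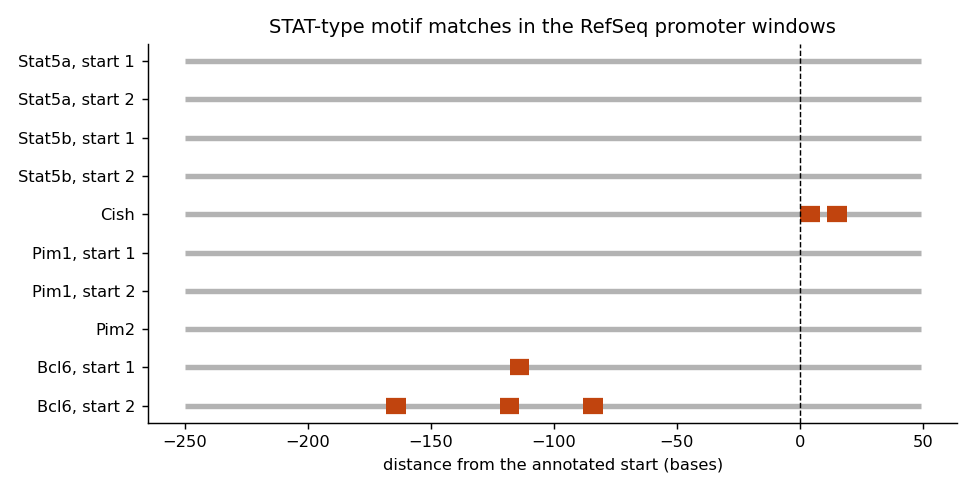
Matches to the STAT-type motif (orange) in each 300-base promoter window of 6 members (grey bars), by distance from the annotated start in bases, with negative distances upstream. Cish has 2 matches just after its start, the Bcl6 windows have 1 and 3, and the windows of Stat5a, Stat5b, Pim1 and Pim2 have none.

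None of the 7 genes reached the threshold of limma (Benjamini-Hochberg adjusted p under 0.05), which called 0.145% of all genes. Their genotype differences ran from -0.66 for Bcl6 to 1.47 for Pim1, with a median of -0.094 against -0.017 over all genes. At an unadjusted p of 0.05, 1 member was higher in Hes1-null marrow (Pim1), as were 3.51% of all genes, and 1 was lower (Bcl6), as were 4.78%. In either direction the 2 members stand beside 8.29% of all genes. Genotypes did not overlap for 4 of the 7, Pim1 and Pim2 being higher on both Hes1-null arrays and Stat5b and Bcl6 lower, where 17.4% of all genes were higher and 20.6% lower without overlap, 38.0% in all. An exact permutation test on 2 arrays against 2 cannot go below a two-sided p of 0.333. The plot of levels by array shows all 28 values.

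**Figure D2:**
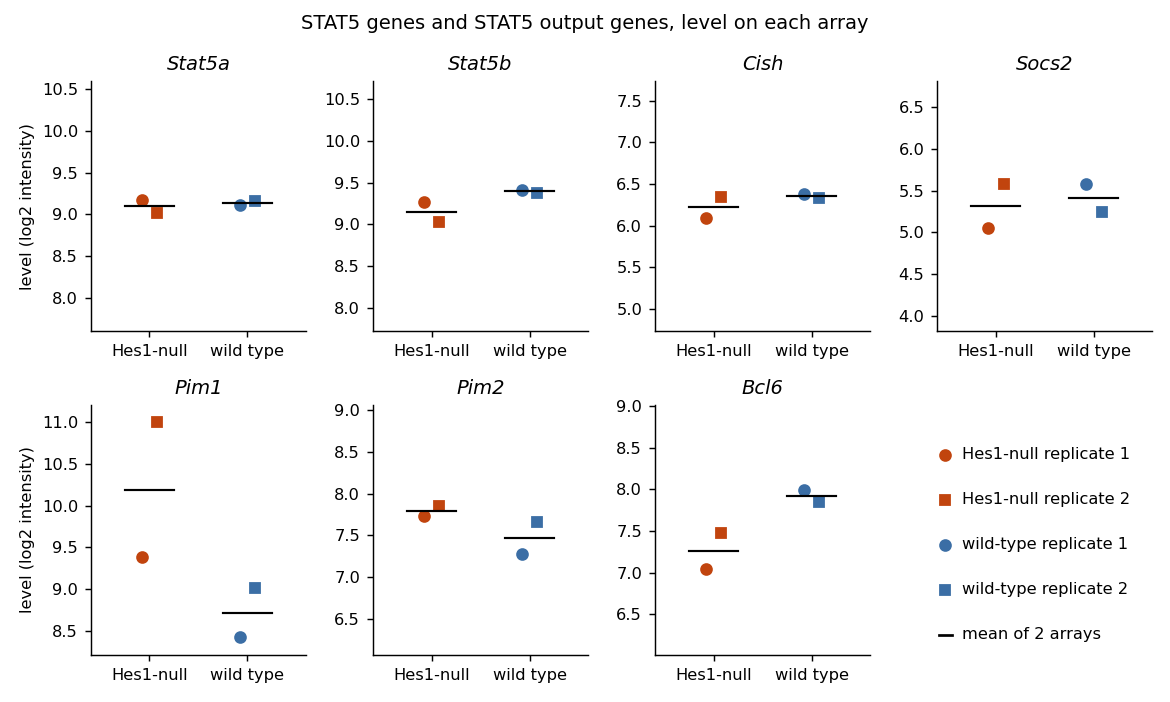
Level (log2 intensity) of each of the 7 genes on the 4 arrays, Hes1-null in orange and wild type in blue, circles for replicate 1 and squares for replicate 2, with black bars at the mean of 2 arrays. Every panel spans 3 log2 units, so that distances compare between panels: Pim1 has the widest gap within Hes1-null (9.38 and 11.0), and Stat5a, Cish and Socs2 overlap between genotypes.

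Neither of the factors themselves passed the threshold. Stat5a lay at 9.18 and 9.02 on the Hes1-null arrays and at 9.11 and 9.15 on the wild-type arrays, with overlap between genotypes. Its difference was -0.035 ± 0.16 (95% interval -0.44 to 0.37), so a change of the message beyond 1.29-fold up or to below 0.738 of wild type lies outside the interval. Stat5b lay at 9.27 and 9.02 on the Hes1-null arrays, against 9.41 and 9.38 on the wild-type arrays. Both Hes1-null arrays were lower, with a difference of -0.25 ± 0.17 (95% interval -0.67 to 0.17, adjusted p = 0.783 by limma). That difference was about the size of the gap within Hes1-null, where replicate 2 minus replicate 1 was -0.24. A fall to 0.627 of wild type is at the edge of the interval, so a moderate decrease is not excluded. The 2 genes are neighbours on chromosome 11, with Stat3 beside Stat5a, and their coding sequences are close copies. Whether their probe sets share signal was not tested. Within an array, Stat5b minus Stat5a was 0.088 and 0.0036 on the Hes1-null arrays and 0.30 and 0.23 on the wild-type arrays, a description with no test.

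The feedback inhibitors did not separate the genotypes. Cish, whose product binds activated receptors and blocks docking of STAT5, lay at 6.09 and 6.35 on the Hes1-null arrays and at 6.38 and 6.33 on the wild-type arrays. Replicate 1 of Hes1-null was the low array and replicate 2 lay inside the wild-type range. The difference was -0.13 ± 0.15 (95% interval -0.52 to 0.25). Socs2, a related inhibitor of growth hormone and cytokine receptors, lay at 5.05 and 5.58 on the Hes1-null arrays and at 5.58 and 5.24 on the wild-type arrays. One array of each genotype was high and the other low, and the difference was -0.094 ± 0.22. The other Socs2 probe set gave the same picture, with 4.99 and 5.63 on the Hes1-null arrays and 5.55 and 5.14 on the wild-type arrays. Both genes were dim, at the 49.0th percentile of gene levels for Cish and the 31.8th for Socs2, and a compressed response of dim probe sets was not tested.

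Pim1 had the largest difference of the group, and it came mostly from 1 array. In linear intensity Pim1 measured 668 and 2042 on Hes1-null replicates 1 and 2, against 343 and 516 on wild-type replicates 1 and 2. On the log2 scale these are 9.38 and 11.0 against 8.42 and 9.01. Both Hes1-null arrays were above both wild-type arrays, but the nearest pair, Hes1-null replicate 1 and wild-type replicate 2, lay 0.37 apart, less than the 0.59 between the wild-type arrays. The mean difference was 1.47 ± 0.54 (2.78-fold, 95% interval 1.08 to 7.14). Its p by limma was 0.0387 before adjustment and 0.571 after it. The gap between the Hes1-null arrays, 1.61, exceeded that difference, and 0.481% of all genes had a wider one there. Without Hes1-null replicate 1 the difference was 2.28 (adjusted p = 0.0454), and without Hes1-null replicate 2 it was 0.67 (adjusted p = 0.341), both by limma with the lone array assumed to vary like the wild-type arrays. The first setting called 5.01% of all genes and the second 0.0752%.

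Immediate early genes, which cells switch on within minutes of a stimulus or of handling, also summed to more on the Hes1-null arrays, and to most on replicate 2. The list holds 13 genes such as Fos, Jun and Egr1, all measured. Their summed intensity was 11940 and 18948 on Hes1-null replicates 1 and 2, against 4122 and 4665 on wild-type replicates 1 and 2. The median of their differences was 1.42, Jun alone passed the adjusted test (10.77 and 11.0 on the Hes1-null arrays against 8.24 and 8.13 on the wild-type arrays), and 11 of the 13 did not overlap, all higher in Hes1-null, beside 17.4% of all genes. Their part in the Pim1 result was not tested. The genes with the array pattern most like Pim1, by root mean square distance of centred log2 levels over 4 arrays, were Ccrl2 (0.14), which encodes a chemerin-binding receptor, Zfp36l1 (0.15), which encodes an mRNA decay factor, and Trib1 (0.16), which encodes a pseudokinase. These 3 were the only genes within 0.2 of it among those the naming rule admits, and none passed the adjusted test. Trib1 lay at 7.79 and 9.02 on the Hes1-null arrays against 6.50 and 7.0 on the wild-type arrays.

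**Figure D3:**
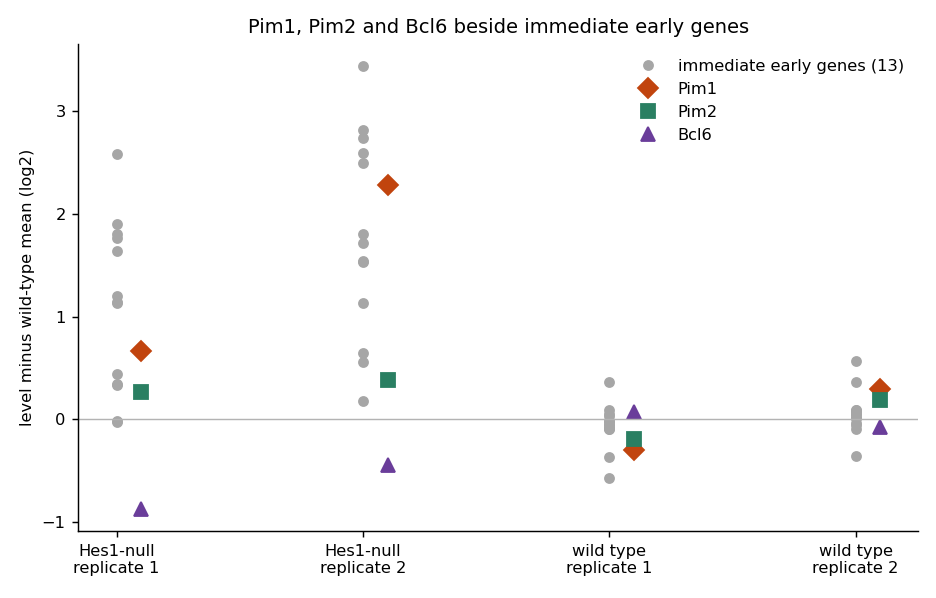
Level minus the wild-type mean (log2) on each array for Pim1, Pim2, Bcl6 and the 13 immediate early genes (grey). Pim1 stands 0.67 and 2.28 above the wild-type mean on Hes1-null replicates 1 and 2, inside the spread of the grey points on both arrays, while Bcl6 lies below the mean on both.

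Pim2, which encodes a close relative of the Pim1 kinase, lay at 7.73 and 7.85 on the Hes1-null arrays and at 7.28 and 7.66 on the wild-type arrays. The Hes1-null arrays were the higher pair, with wild-type replicate 2 close below them. The difference was 0.33 ± 0.20 (1.25-fold, 95% interval 0.890 to 1.77, adjusted p = 0.754 by limma), less than the 0.38 between the wild-type arrays. Pim3, the other member of the kinase family, differed by 0.19 ± 0.20, with 8.16 and 8.55 on the Hes1-null arrays against 8.10 and 8.22 on the wild-type arrays. Pim1 minus Pim2 within an array was 1.65 and 3.14 on the Hes1-null arrays and 1.15 and 1.35 on the wild-type arrays, a description with no test. Pim2 is on the X chromosome. Xist, the RNA of the inactive X, lay at 11.73 and 7.25 on Hes1-null replicates 1 and 2. On wild-type replicates 1 and 2 it lay at 12.0 and 11.82. Hes1-null replicate 2, the low array for Xist, was also the high array for Pim1. The part of Xist in the Pim2 values, and of what sets this array apart in the Pim1 values, was not tested. The nearest patterns to Pim2 were those of Parp10 (0.019), Rusc2 (0.024) and Gpx5 (0.027), with 3519 genes within 0.2. Pim2 varied less over the 4 arrays than Pim1 or Bcl6 did, so a distance of 0.2 is a looser match for it. That count therefore does not compare with those of Pim1 and Bcl6.

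Bcl6 was lower on both Hes1-null arrays. It lay at 7.04 and 7.47 there, against 7.98 and 7.85 on the wild-type arrays, with 0.37 between the nearest arrays of the genotypes and 0.43 between the Hes1-null arrays. Its mean difference was -0.66 ± 0.21 (0.634-fold, 95% interval 0.442 to 0.909). Its p by limma was 0.0219 before adjustment and 0.477 after it. With each array left out in turn it ran from -0.87, without Hes1-null replicate 2, to -0.44, without Hes1-null replicate 1, and its adjusted p stayed above the threshold. The nearest patterns were those of Ctsh (0.019), a lysosomal cathepsin gene, Map3k5 (0.024), a stress kinase gene, and Mgp (0.026), a matrix protein gene, with 366 genes within 0.2. Ctsh lay at 9.31 and 9.78 on the Hes1-null arrays against 10.27 and 10.17 on the wild-type arrays.

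Bcl6 is also expressed in mature myeloid and lymphoid cells, and 3 of 4 lists of myeloid markers summed to less in the same arrays. The 8 measured markers of monocytes and macrophages summed to intensities of 8247 and 8014 on the Hes1-null arrays, against 13919 and 13151 on the wild-type arrays, with 7 lower and 1 higher without overlap (20.6% of all genes were lower and 17.4% higher without overlap). The 11 late neutrophil markers summed to 9773 and 12989 on the Hes1-null arrays, against 14324 and 23085 on the wild-type arrays, with 7 lower and 1 higher without overlap. The 6 primary granule markers summed to 14813 and 11914 on the Hes1-null arrays, against 27263 and 26395 on the wild-type arrays, with 5 lower and 1 higher. These 3 lists thus summed to less on both Hes1-null arrays than on either wild-type array. The remaining myeloid list, 8 markers of eosinophils, basophils and mast cells, overlapped, with sums of 1252 and 1455 on the Hes1-null arrays and 1171 and 1671 on the wild-type arrays. T cell markers, 8 measured, summed to 473 and 422 on the Hes1-null arrays, against 1022 and 684 on the wild-type arrays, while the 8 B cell markers summed to 1774 and 988 on the Hes1-null arrays and 1223 and 1208 on the wild-type arrays. The B cell sums overlapped between genotypes. Cd79b made up most of each B cell sum, at 10.48 and 9.50 on the Hes1-null arrays and 9.85 and 9.86 on the wild-type arrays. Most of the T cell gap was Cd28, and without it the other 7 summed to 403 and 355 on the Hes1-null arrays against 483 and 451 on the wild-type arrays. Erythroid markers, from a lineage in which erythropoietin acts through STAT5, summed to 641 and 659 on the Hes1-null arrays against 818 and 672 on the wild-type arrays (7 measured), and 6 megakaryocyte markers to 607 and 606 on the Hes1-null arrays against 1106 and 1093 on the wild-type arrays. No marker was at 0, since all deposited intensities are above 0. Some B cell markers were dim, such as Ms4a1 (10.4th percentile of gene levels) and Ebf1 (19.7th), while Cd79b lay at the 91.9th. How far dim signals reflect cells was not tested. The part of these marker lists in the Bcl6 values was not tested either.

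**Figure D4:**
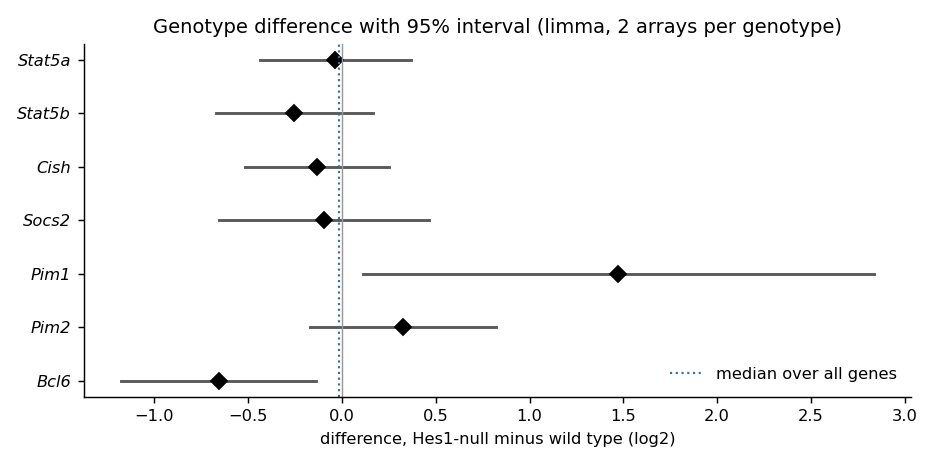
Difference in level, Hes1-null minus wild type (log2), for the 7 genes, with 95% intervals from limma (n = 2 arrays per genotype) and the median over all genes as a dotted line. The intervals of Pim1 (0.11 to 2.84) and Bcl6 (-1.18 to -0.14) exclude 0 before adjustment for 19938 genes, and the other 5 include it.

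Genes that act around STAT5 were read from 7 lists by role, with 55 of 62 listed genes measured by a probe set with 1 symbol and the other 7 not analysed here. None of the 55 passed the adjusted test by limma. At an unadjusted p of 0.05, 2 were higher in Hes1-null marrow (3.64%, beside 3.51% of all genes) and 8 lower (14.5%, beside 4.78%). The lists were chosen with earlier results of these data known, so these shares are a description with no test. Genotypes did not overlap for 40% of them, beside 38.0% of all genes. The count of calls moved with the arrays: it was 5 without Hes1-null replicate 1 (Socs3, Kit, Osm, Myc and Ccnd2), 1 without wild-type replicate 1 (Flt3) and 0 without either of the others. Over all genes, the setting with 5 calls called 5.01%, that with 1 call 0.176%, and those with 0 calls 0.0752% and 0.0301%.

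Upstream, the receptors that can activate STAT5 were mixed, with 14 measured, a median difference of -0.13, 4 higher and 5 lower without overlap, where 38.0% of all genes did not overlap. Flt3, the receptor tyrosine kinase of progenitors, differed by 1.94 ± 0.30 (adjusted p = 0.142 by limma), with 11.79 and 11.50 on the Hes1-null arrays against 10.13 and 9.27 on the wild-type arrays. Kit, the stem cell factor receptor, went the other way, at 8.29 and 6.39 on the Hes1-null arrays against 9.02 and 8.87 on the wild-type arrays. Replicate 2 was the low array, and the difference was -1.60 ± 0.60 (adjusted p = 0.578 by limma). Csf3r, the granulocyte colony-stimulating factor receptor, differed by -0.51 ± 0.17 and Il2rb, a chain of the interleukin-2 receptor, by -0.48 ± 0.18. The shared chain of the interleukin-3 and GM-CSF receptors, Csf2rb, differed by 0.22 ± 0.15, and its interleukin-3 relative Csf2rb2 by 0.45 ± 0.24. The 3 measured Janus kinase genes did not differ beyond their errors, with Jak1 at -0.16 ± 0.17, Tyk2 at -0.15 ± 0.16 and Jak2 at -0.075 ± 0.25. Of these, Tyk2 alone was lower without overlap, as were 20.6% of all genes.

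Among the 4 other STAT genes measured, Stat4, which carries interleukin-12 signals in T and NK cells, had the largest difference. It lay at 5.46 and 6.99 on the Hes1-null arrays against 7.66 and 7.97 on the wild-type arrays, a difference of -1.59 ± 0.50 (adjusted p = 0.476 by limma). The 7 NK markers summed to intensities of 195 and 209 on the Hes1-null arrays against 228 and 227 on the wild-type arrays. They were dim, from the 6.22th percentile of gene levels for Klrb1c to the 44.8th for Prf1. The part of NK and T cells in the Stat4 values was not tested. Stat3 differed by 0.51 ± 0.30, with replicate 2 of Hes1-null as the high array (10.10 and 10.92 on the Hes1-null arrays against 9.82 and 10.17 on the wild-type arrays), Stat6 by -0.13 ± 0.14 and Stat2 by 0.022 ± 0.25. The 6 other SOCS genes had a median of -0.037. Socs3, the inhibitor that STAT3 induces, lay at 6.47 and 8.03 on the Hes1-null arrays and at 6.74 and 6.74 on the wild-type arrays, so that only Hes1-null replicate 2 was high. Socs1 (0.40 ± 0.23), Socs5 (-0.12 ± 0.14) and Socs6 (-0.11 ± 0.19) did not differ beyond the threshold. Stat4 and Stat6 were lower without overlap, as were 2 of the 6 SOCS genes, Socs5 among them, beside 20.6% of all genes. Of 12 other genes listed as brakes on the pathway, 1 was higher without overlap, Cblb (0.49 ± 0.21), a ubiquitin ligase gene. Another 1 was lower, the phosphatase gene Ptpn11 (-0.12 ± 0.14). Whether each listed gene acts as a brake in this marrow was not tested. Over all genes, 17.4% were higher and 20.6% lower without overlap. The list was chosen with earlier results known, so this is a description with no test. Ptpn6, the phosphatase SHP-1, differed by -0.37 ± 0.23, Cbl by -0.23 ± 0.17 and the adaptor gene Sh2b3 by 0.14 ± 0.15.

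**Figure D5:**
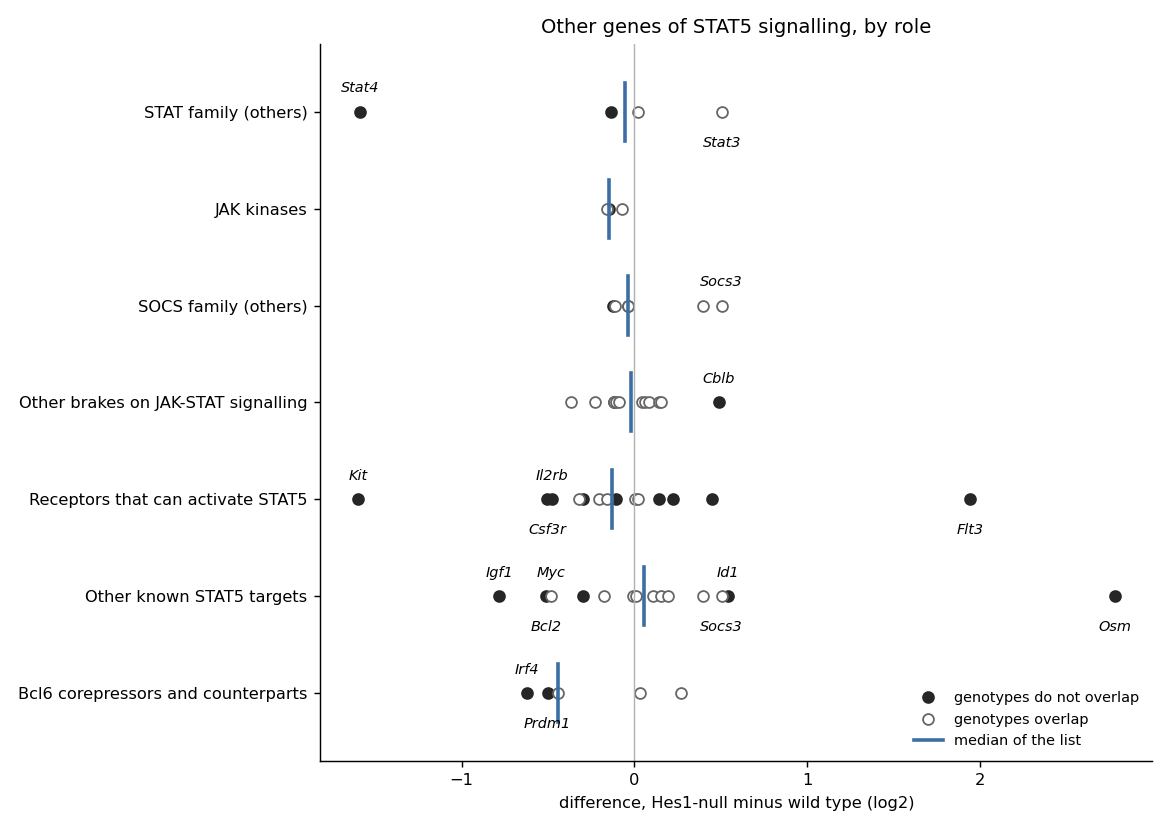
Difference in level, Hes1-null minus wild type (log2), for the genes of 7 lists of STAT5 signalling, 1 point per gene, filled where the genotypes do not overlap, with the list median as a blue bar. Most points lie near 0, Osm (2.78) and Flt3 (1.94) stand to the right, and Kit (-1.60) and Stat4 (-1.59) to the left.

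Other genes known as STAT5 targets lay on both sides of 0. Of 14 measured, 8 had a positive and 6 a negative difference, the median was 0.057, and 2 were higher and 3 lower without overlap, a share near the 38.0% of all genes. Osm, which encodes the cytokine oncostatin M and is induced by STAT5 in mouse blood cells, had the largest difference, 2.78 ± 0.40 (unadjusted p = 0.000649, adjusted p = 0.118 by limma). It lay at 9.72 and 10.84 on the Hes1-null arrays against 7.28 and 7.72 on the wild-type arrays, both Hes1-null arrays clear of both wild-type arrays. Igf1, a growth factor gene that growth hormone induces through STAT5b in liver, differed by -0.78 ± 0.14 (adjusted p = 0.197 by limma), with 5.32 and 5.48 on the Hes1-null arrays against 6.09 and 6.27 on the wild-type arrays. The survival gene Bcl2 differed by -0.51 ± 0.16 and Id1, an inhibitor of differentiation factors, by 0.54 ± 0.22. The related survival genes differed by less than their errors, with Bcl2l1 at -0.18 ± 0.20 and Mcl1 at 0.11 ± 0.22. Myc lay at 11.56 and 10.02 on the Hes1-null arrays and at 11.14 and 11.42 on the wild-type arrays. The cyclin gene Ccnd2 lay at 7.25 and 9.05 on the Hes1-null arrays and at 8.22 and 8.06 on the wild-type arrays. In both genes the Hes1-null arrays lay on either side of the wild-type arrays.

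Around Bcl6, 5 of 7 listed genes were measured, and Prdm1 and Irf4 were lower without overlap, as were 20.6% of all genes. Prdm1, whose product Blimp-1 opposes Bcl6 in B cells, lay at 4.79 and 4.79 on the Hes1-null arrays and at 5.29 and 5.29 on the wild-type arrays, a difference of -0.50 ± 0.12 (adjusted p = 0.299 by limma). Irf4, a factor of plasma cells and activated lymphocytes, differed by -0.62 ± 0.12 (adjusted p = 0.218 by limma), with 4.96 and 4.99 on the Hes1-null arrays against 5.65 and 5.55 on the wild-type arrays. Both were dim, at the 25.5th percentile of gene levels for Prdm1 and the 30.4th for Irf4. The corepressor gene Bcor (0.27 ± 0.22) and its relative Bcorl1 (-0.45 ± 0.27) overlapped between genotypes.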

How the data were processed

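The deposited table holds array intensities that the authors summarised in Affymetrix Expression Console by RMA, as the submitters' processing notes list (no version is given in the sources used here). They are on a linear scale (array medians 65.0 to 67.3), so log2 was taken with nothing added, and no normalization was repeated. Of 35556 probe sets, 21789 carry 1 gene symbol, and the probe set with the highest mean stood for each of 19938 genes. Entrez identifiers matched 21698 of these probe sets to RefSeq (GRCm38.p6). All 4 array columns were used and 0 left out. The test was limma 3.58.1 (R 4.3.3; eBayes with intensity trend, two-sided, 2 residual and 3.41 prior degrees of freedom), with Benjamini-Hochberg adjustment over all genes at 0.05. The script was tested on simulated data. The number of arrays limits the precision.

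The members, lists, markers and tests were chosen with earlier results of these data known. The genes named are the members, Hes1, any gene of a pathway list past the threshold, the 4 of each list with the smallest unadjusted p, and the 3 nearest patterns of the 3 members with the smallest unadjusted p, without small RNAs, chemosensory receptors and unnamed transcripts. Xist, immediate early genes, Cd79b, Csf2rb, Csf2rb2, Pim3, Ptpn11, Bcl2l1, Mcl1, Myc and Ccnd2 were named outside this rule, after their values were seen. So were the dim markers Ms4a1, Ebf1, Klrb1c and Prf1. No list was tested as a set. The alternatives tried were the replicate block, quantile normalization, median centring, 2 filters on level, 3 other moderation settings, the mean of probe sets, a pseudocount of 16 and leaving out each array.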

Additional observations from a re-analysis of the deposited data

How the results depend on the processing

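Direction and call of Stat5b, Cish, Pim2 and Bcl6 were the same under every alternative run for them. Pim1 kept its direction in all of its 14 alternatives and was called in 1, the one without Hes1-null replicate 1, which called 999 genes (5.01%). With 1 array left out, the difference ran from -0.11 to 0.044 for Stat5a, from -0.36 to 0.17 for Socs2 and from 0.67 to 2.28 for Pim1, so that Stat5a and Socs2 changed sign. The members called numbered 0 or 1 with 1 array left out and 0 otherwise. Over all genes, 29 were called, against 89 with the replicate number as a block, 17 among genes at or above the 25th percentile of level, 5 at or above the median and 45 with array weights, and 6 to 999 with 1 array left out. The filters test fewer genes, but the cause of the change in count was not tested for any setting. The labels do not say what a replicate number shares, and deviations of same-numbered arrays correlated at 0.05 across genes (2 pairs). With the block, 2 of the pathway genes were called, Osm (adjusted p = 0.0171) and Flt3 (0.0246) by limma, beside 0.446% of all genes, and Pim1 had an adjusted p of 0.132. With 1 array left out 0 to 5 pathway genes were called, the 5 in the setting that called 5.01% of all genes. The alternatives for pathway genes and the T cell sum without Cd28 were chosen after seeing the data. Cish and Socs2 fall below the filter at the median level, so it gave no value for them. The median SE of a difference over all genes was 0.17 on the log2 scale.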
